A study of Mus musculus with 30 samples.

Results

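The genes described here are the axon guidance ligands and receptors measured in motoneurons of the adult mouse spinal cord. They were taken by name from the array's annotation, as every probe set whose single gene symbol belongs to the Eph, ephrin, semaphorin, plexin, neuropilin, Robo, Slit, netrin, Unc5 or Dcc names. This gave 58 probe sets of 45 genes, of 12422 probe sets tested and 8251 genes with a symbol. One of them, Unc50, matched by its letters alone and is a membrane protein that is not a netrin receptor, so 44 genes with 57 probe sets belong to the guidance families. The Eph and ephrin family had 22 probe sets of 17 genes, and the semaphorins with their plexin and neuropilin receptors had 29 probe sets of 22 genes. Robo1 and Robo3 had 1 probe set each, and netrin 1, Dcc and Unc5c had 4 together. No Slit gene is among the members analysed here.

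The samples were 3 pools of laser-captured cells. IML are motoneurons of the intermediolateral column, the preganglionic cells of the autonomic nervous system. LMN and MMN are the lateral and medial motoneurons, which are somatic and drive skeletal muscle. All 3 pools came from the cord of each of 5 adult sham-operated control mice, with 400 captures per cell type, and no strain, age or sex was used here. The RNA from a pool of an animal was divided over 2 separately amplified arrays, whose log2 values were averaged, so that there were 15 samples and n is 5 animals for each pool. Values are log2 intensities of Affymetrix probe sets, and a difference of 1 is a doubling of intensity. Somatic stands for the mean of LMN and MMN in the same animal.

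Guidance ligands are read by receptors on the growing axon, which turn the growth cone towards or away from their source. Eph receptors bind ephrins on touching cells and signal in both directions, semaphorins act through plexins with neuropilins as co-receptors, Slit proteins act through Robo receptors, and netrin attracts through Dcc and repels through Unc5 receptors. In the embryo, EphA4 and ephrins sort the axons of limb-innervating motor columns between dorsal and ventral muscles. In adult neurons many of these proteins also take part in synapse and dendrite maintenance.

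The pools also differed in other cells' transcripts. Of 13 meningeal and fibroblast markers, 8 were called higher in IML than in somatic samples and none lower, with a median difference of 0.86, and 11 of 13 were called higher in IML than in LMN. Their summed intensity was 22526 to 31132 in IML, against 8304 to 21135 in LMN and 10622 to 33546 in MMN. Of 14 microglial markers 7 were called higher (summed intensity 3053 to 5515 in IML, 2445 to 2843 in LMN and 2570 to 3477 in MMN). So were 2 of 12 astrocyte, 1 of 10 oligodendrocyte and 1 of 11 endothelial markers. None of 4 inhibitory and 2 excitatory interneuron markers was called. At an unadjusted p under 0.05 in limma, the inhibitory marker Gad1 was higher in IML (0.45 ± 0.18, SE) and the excitatory marker Lmx1b lower (-0.13 ± 0.04). Against LMN, limma called 8 microglial, 3 astrocyte, 1 oligodendrocyte, 3 endothelial and 1 inhibitory marker higher in IML, and none of these lists lower. The inhibitory one was Gad1 (0.95 ± 0.21, adjusted p = 0.019), which averaged 9.26 in IML, 8.31 in LMN and 9.30 in MMN. Of 8 motoneuron markers 5 were measured. Nefh, the heavy neurofilament subunit, was lower in IML (11.56 ± 0.28, against 12.58 ± 0.36 in LMN and 12.20 ± 0.25 in MMN, SD), and Slc18a3, the vesicular acetylcholine transporter, averaged 7.18 in IML, 8.73 in LMN and 8.30 in MMN. Isl1 and Nos1 averaged at most 5.74 and 5.73 in any pool, where the median probe set averaged 7.10. The LMN sample of animal 2 had the lowest Slc18a3 and Prph values of the LMN pool (7.12 and 8.19). In bulk samples, fewer cells of a type and less RNA per cell cannot be told apart.

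Most guidance probe sets, like most of all probe sets, differed little between the pools. Between IML and somatic samples, 1 of 58 members passed the test, Epha7 at 0.47 ± 0.12, which is 1.72% of the members where 5.52% of all probe sets passed (limma with the animal as a block, Benjamini-Hochberg adjusted p under 0.05 over all 12422 probe sets). Between IML and LMN, 3 members passed, Efnb2, Epha7 and Plxnb2, all higher in IML, or 5.17% where 8.98% of all probe sets passed. Between IML and MMN and between LMN and MMN no member passed, where 0.346% and 0.0564% of all probe sets did. At an unadjusted p under 0.05 limma found 9, 12, 1 and 2 members in these 4 comparisons. In the same order these are 15.5%, 20.7%, 1.72% and 3.45% of the members, beside 20.7%, 23.5%, 12.3% and 11.6% of all probe sets. The median difference between IML and somatic samples was 0.01 over the members and -0.01 over all probe sets. Of the 58 members 48 lay within 0.2 of 0, as did 10180 of all 12422 probe sets.

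**Figure D1:**
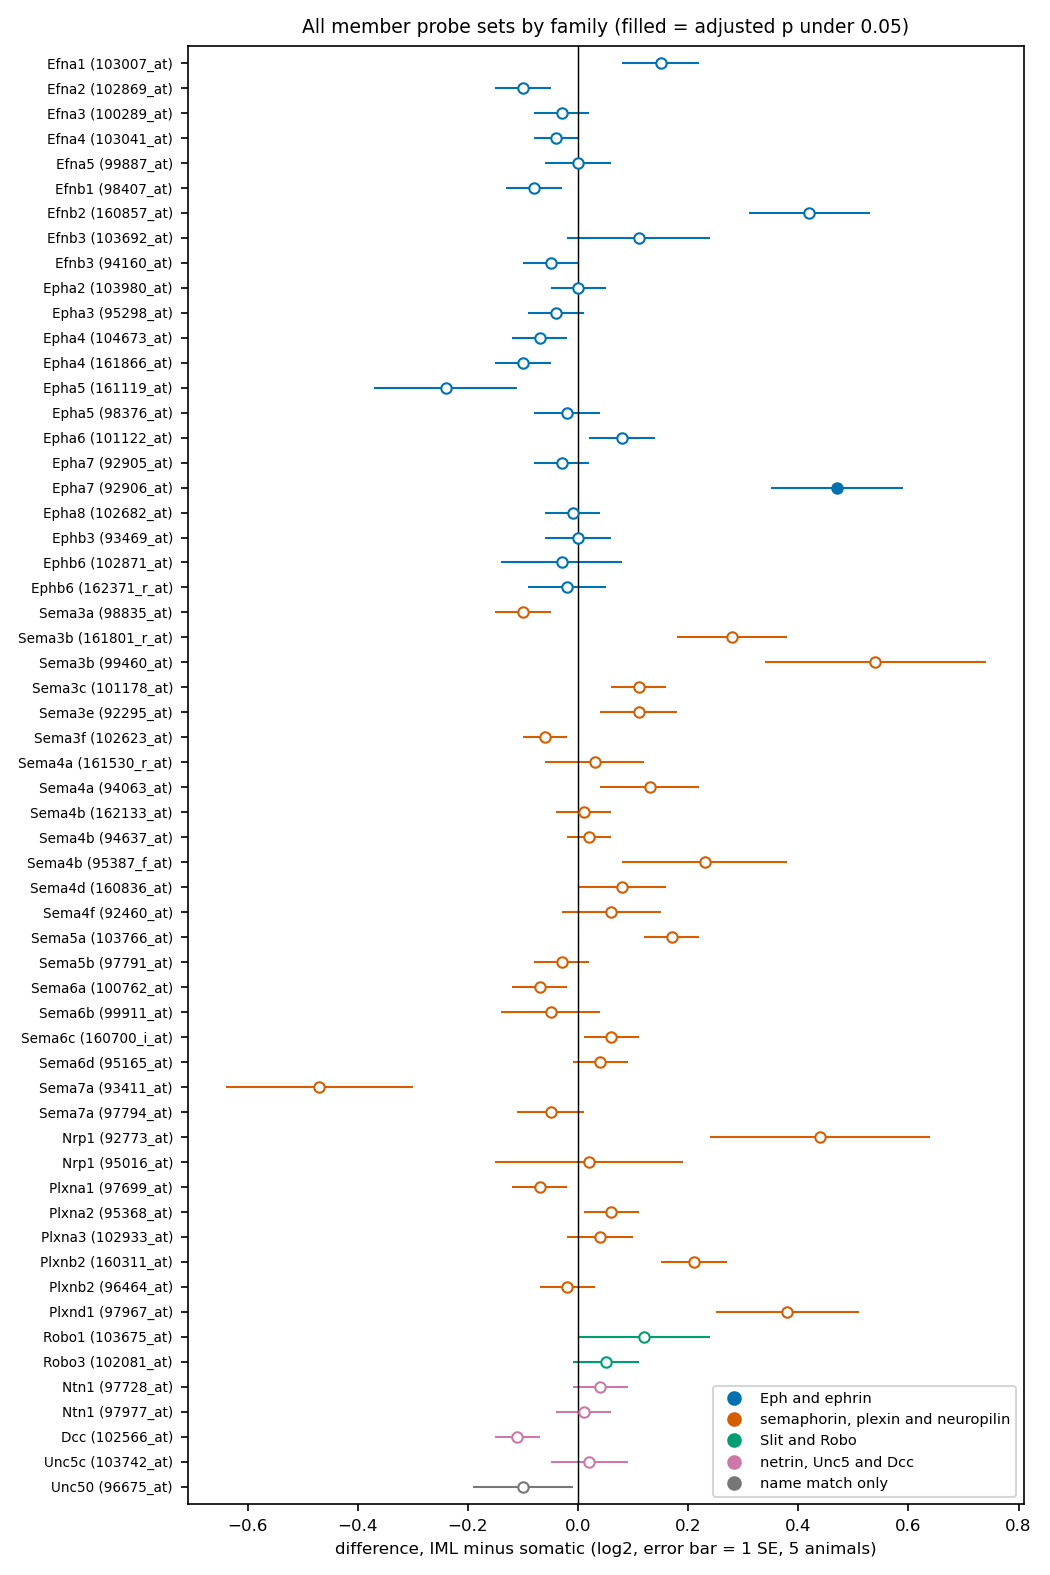
Difference between IML and somatic samples (horizontal axis, log2 intensity, IML minus the mean of LMN and MMN, error bars 1 SE, 5 animals) for each of the 58 member probe sets, listed by family with ligands above receptors. Epha7 at 0.47 is the filled point, with an adjusted p under 0.05. Within 0.2 of 0 lie 48 of the 58 probe sets, as do 10180 of all 12422 tested.

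Epha7, an Eph receptor that binds ephrin-A ligands, was higher in IML than in somatic motoneurons on one of its 2 probe sets. Probe set 92906_at read 7.33, 6.72, 7.16, 6.40 and 6.38 in IML of animals 1 to 5, against 6.23, 6.10, 6.46, 6.26 and 6.11 in LMN and 6.41, 6.29, 6.70, 6.13 and 6.63 in MMN. The IML samples of animals 1 and 3 were highest, and the ranges overlapped because the IML samples of animals 4 and 5 lay within the range of the somatic samples. The difference from somatic samples was 0.47 ± 0.12 (log2, SE, n = 5), or 1.38-fold (adjusted p = 0.0470), and it was positive in 5 of 5 animals, from 0.01 in animal 5 to 1.01 in animal 1. Against LMN it was 0.57 ± 0.14 (adjusted p = 0.0282, 5 of 5 animals), and against MMN 0.37 ± 0.14 (adjusted p = 0.310, 4 of 5 animals). The other probe set, 92905_at, averaged 3.96 ± 0.04 in IML, 3.99 ± 0.13 in LMN and 3.99 ± 0.08 in MMN and differed from somatic samples by -0.03 ± 0.05, which was not called. It averaged 3.98 over the 15 samples, a low intensity that cannot be set against background without detection calls. The adjusted p of 92906_at for somatic samples lies close to the threshold. It missed when animal 1, 2, 3 or 4 was left out (0.133, 0.120, 0.189 and 0.0645) and when the LMN sample of animal 2 was (0.0782), and the call against LMN was lost without animal 1, 2 or 3 (0.0770, 0.0898 and 0.124) or that sample (0.0646). The difference from somatic samples was 0.78 ± 0.27 with the mean of the meningeal markers as a covariate and 0.18 ± 0.26 with that of the glial markers. Neither passed, but in both models limma called none of the 12422 probe sets, so a missed threshold there cannot tell members apart.

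Epha5, also a receptor of ephrin-A ligands, had its highest values in LMN on one of its 2 probe sets, without passing the test. Probe set 161119_at read 6.27, 6.54, 5.89, 5.94 and 6.71 in IML, against 6.48, 6.70, 6.51, 6.15 and 7.86 in LMN and 6.02, 6.41, 5.58, 6.14 and 7.23 in MMN. LMN was the highest pool in all 5 animals and the pools overlapped, with animal 5 highest in each. The difference between IML and LMN was -0.47 ± 0.15 (adjusted p = 0.0712, 5 of 5 animals lower), and that between LMN and MMN was 0.46 ± 0.15 (adjusted p = 0.249, 5 of 5 animals higher), neither of which passed. IML and somatic samples differed by -0.24 ± 0.13. This probe set also had the largest spread between the 2 arrays of a sample among the members, an SD of 0.44 where the median member had 0.13. The second Epha5 probe set, 98376_at, averaged 5.37 ± 0.07 in IML, 5.40 ± 0.06 in LMN and 5.39 ± 0.14 in MMN.

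The other Eph receptors varied within narrow limits. Epha4, the receptor that guides limb motor axons in the embryo, was measured by 2 probe sets with differences from somatic samples of -0.07 ± 0.05 and -0.10 ± 0.05. Epha2, Epha3, Epha6 and Epha8 differed by 0.00, -0.04, 0.08 and -0.01. Of the EphB receptors, Ephb3 differed by 0.00, and Ephb6, whose kinase domain is inactive, differed by -0.03 and -0.02 on its 2 probe sets. Of 10 EphA receptor probe sets 2 were positive and 8 negative, with a median of -0.03, where 46.4% of all probe sets were positive.

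Efnb2 encodes ephrin-B2, a transmembrane ligand of EphB receptors and of EphA4 that also carries signals into its own cell. It was higher in IML than in LMN. Probe set 160857_at read 8.43, 8.94, 8.48, 8.05 and 8.23 in IML, against 7.36, 8.42, 7.91, 7.68 and 7.45 in LMN and 7.67, 9.01, 8.67, 7.69 and 8.25 in MMN. LMN was the lowest pool in each animal, although the LMN sample of animal 2 lay within the range of the IML samples. IML exceeded LMN by 0.66 ± 0.13, or 1.58-fold (adjusted p = 0.0128), and did so in 5 of 5 animals, from 0.37 to 1.07. IML and MMN differed by 0.17 ± 0.13 (adjusted p = 0.670, 2 of 5 animals higher). The difference from both somatic pools was 0.42 ± 0.11 (adjusted p = 0.0595, 5 of 5 animals), and that between LMN and MMN was -0.49 ± 0.13 (adjusted p = 0.188, 5 of 5 animals lower). With 1 animal left out, the difference from LMN was 0.56 to 0.74 and missed the threshold once, without animal 5 (adjusted p = 0.0604). Ephrin-B2 also marks arterial endothelium. Of 11 endothelial markers, 3 were called higher in IML than in LMN, with summed intensities of 2366 to 3500 in IML, 1953 to 2485 in LMN and 2240 to 3707 in MMN, and their part in the result was not tested. The difference from LMN was 0.86 ± 0.36 with the meningeal and 0.50 ± 0.31 with the glial marker mean as a covariate. Neither passed, in models where limma called none of the 12422 probe sets.

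The remaining ephrins gave no call. The GPI-anchored ephrin-A ligands Efna1 to Efna5 differed from somatic samples by 0.15, -0.10, -0.03, -0.04 and 0.00. Efna1 had the largest of these, 0.15 ± 0.07, and it averaged 6.02 ± 0.21 in IML, 5.87 ± 0.22 in LMN and 5.87 ± 0.14 in MMN. Efnb1 differed by -0.08. Efnb3, an ephrin of the spinal midline, had 2 probe sets of opposite sign at 0.11 ± 0.13 and -0.05 ± 0.05, and the first of them read 10.01 in IML of animal 1 and 9.02 to 9.53 in the other 14 samples.

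Plxnb2, a plexin that binds class 4 semaphorins, was higher in IML than in LMN by a small but regular margin. Probe set 160311_at read 7.51, 7.52, 7.38, 7.57 and 7.32 in IML, against 7.27, 7.27, 7.08, 7.16 and 7.15 in LMN and 7.38, 7.69, 7.05, 7.30 and 7.17 in MMN. All 5 IML samples lay above all 5 LMN samples, which no other member showed and 3.24% of all probe sets did, while MMN overlapped both. The difference was 0.27 ± 0.07, or 1.21-fold (adjusted p = 0.0348, 5 of 5 animals), 0.21 ± 0.06 against both somatic pools (adjusted p = 0.0740) and 0.14 ± 0.07 against MMN (adjusted p = 0.458). The second probe set, 96464_at, averaged 7.15 ± 0.09 in IML, 7.21 ± 0.12 in LMN and 7.13 ± 0.14 in MMN and had the opposite sign against LMN (-0.06 ± 0.05, not called). The call against LMN was lost without animal 1, 3, 4 or 5 (adjusted p from 0.0901 to 0.124) and without the LMN sample of animal 2 (0.0909). With the mean of the meningeal markers as a covariate the difference turned to -0.06 ± 0.16, a model in which limma called none of the 12422 probe sets and 344 had an unadjusted p under 0.05.

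**Figure D2:**
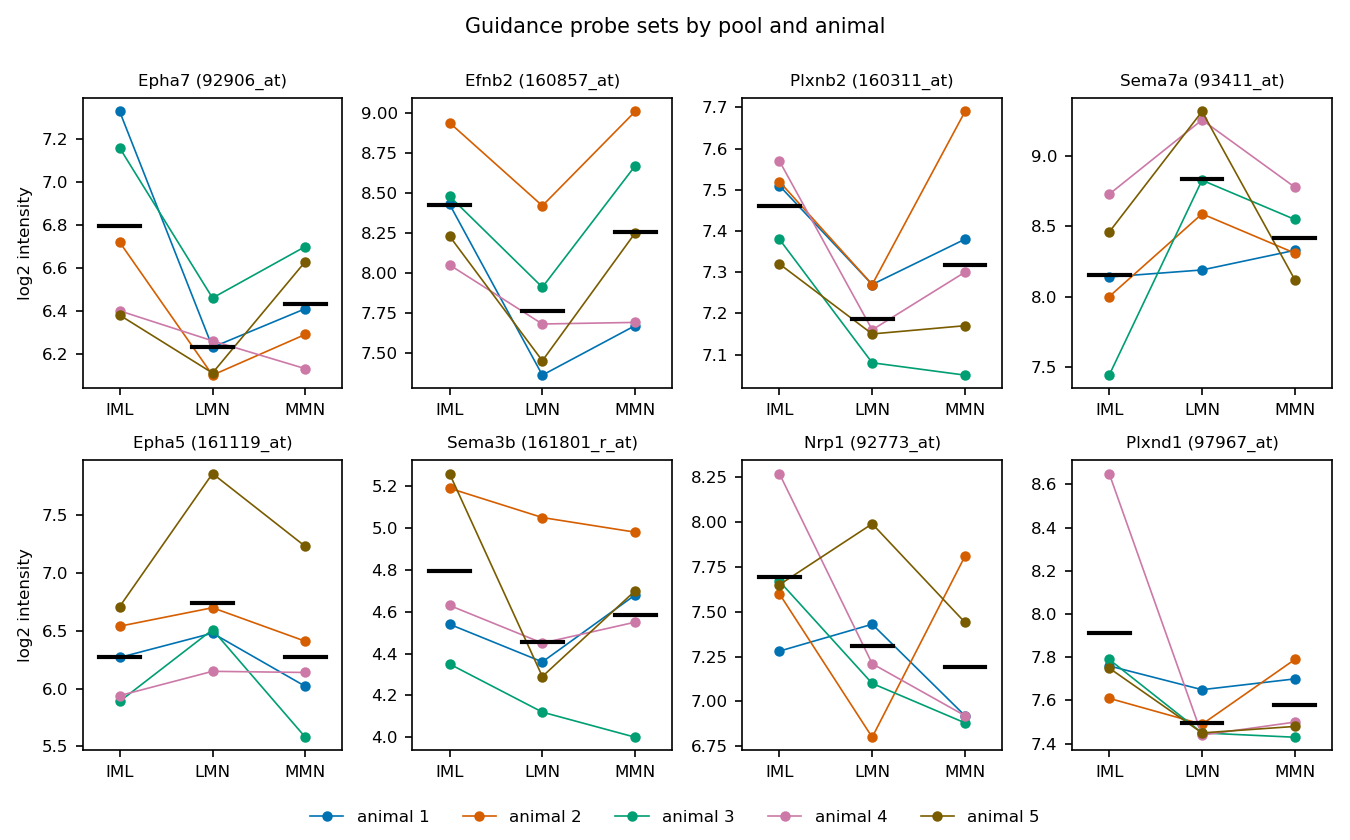
Log2 intensity (vertical axes, each on its own scale) of 8 guidance probe sets in IML, LMN and MMN, with a line for each of the 5 animals and a black bar at the mean of each pool. Epha7, Efnb2 and Plxnb2 have their lowest mean in LMN, and Sema7a and Epha5 have their highest mean there.

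The promoters of these 3 genes are shown because they were the members called higher in IML than in LMN. The sequences run from 250 bases before to 50 after an annotated start in RefSeq on GRCm38.p6, which is not tied to the transcript that a probe set reads. Capitals mark each match to GGGCGG on either strand, the letters of a GC box. Epha7 has 2 overlapping starts, of which one is shown (chr4:28812881-28813180, plus strand), and Efnb2 has 1 (chr8:8661193-8661492, minus strand). Plxnb2 has 2, at chr15:89180739-89181038 and chr15:89173902-89174201, both on the minus strand.
Epha7: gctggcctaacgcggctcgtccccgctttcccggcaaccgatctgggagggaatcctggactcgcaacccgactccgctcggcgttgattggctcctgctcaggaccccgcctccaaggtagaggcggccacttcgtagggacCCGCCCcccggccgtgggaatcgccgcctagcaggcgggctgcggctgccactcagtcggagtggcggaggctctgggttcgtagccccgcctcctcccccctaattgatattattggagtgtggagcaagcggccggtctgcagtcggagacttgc
Efnb2: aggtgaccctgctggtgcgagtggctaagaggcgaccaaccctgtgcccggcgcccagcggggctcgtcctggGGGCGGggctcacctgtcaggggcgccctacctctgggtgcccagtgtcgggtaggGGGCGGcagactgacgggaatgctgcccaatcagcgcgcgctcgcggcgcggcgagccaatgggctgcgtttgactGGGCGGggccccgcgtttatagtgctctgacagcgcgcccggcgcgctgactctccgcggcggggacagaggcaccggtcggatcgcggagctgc
Plxnb2 upstream start: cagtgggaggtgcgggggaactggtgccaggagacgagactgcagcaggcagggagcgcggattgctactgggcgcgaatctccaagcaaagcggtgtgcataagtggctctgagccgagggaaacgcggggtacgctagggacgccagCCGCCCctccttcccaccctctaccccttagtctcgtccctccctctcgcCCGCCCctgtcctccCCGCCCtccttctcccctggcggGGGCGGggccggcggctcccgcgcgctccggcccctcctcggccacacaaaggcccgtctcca
Plxnb2 downstream start: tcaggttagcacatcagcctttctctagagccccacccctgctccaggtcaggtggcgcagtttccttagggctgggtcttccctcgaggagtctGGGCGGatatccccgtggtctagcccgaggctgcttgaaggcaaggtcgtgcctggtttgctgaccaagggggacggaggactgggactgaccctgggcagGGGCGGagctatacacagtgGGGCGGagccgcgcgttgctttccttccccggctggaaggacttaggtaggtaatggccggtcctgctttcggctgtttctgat
The Epha7 window held 1 match, the Efnb2 window 3 and the Plxnb2 windows 4 and 3. GGGCGG is in 35.7% of 32851 mouse promoter windows and in 38 of the 51 windows of the member genes. By gene, which is an unlike count, it is in at least 1 window of 30 of the 38 member genes that have an entry. The windows shown are 61.7% to 72.3% GC, where the median of all promoter windows is 52.7%. The letters TAATTA, which homeodomain proteins can bind, and CAGCTG, an E-box, were not in these windows on either strand. They are in 5.29% and 16.3% of all promoter windows and in 3 and 5 of the 51 windows of the member genes.

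Among the other plexins, Plxnd1, the receptor of Sema3e, was high in one sample. Probe set 97967_at read 7.76, 7.61, 7.79, 8.65 and 7.75 in IML, against 7.65, 7.49, 7.45, 7.44 and 7.45 in LMN and 7.70, 7.79, 7.43, 7.50 and 7.48 in MMN. The IML sample of animal 4 stood apart, and the difference from somatic samples was 0.38 ± 0.13 (adjusted p = 0.131, 4 of 5 animals), against 0.17 to 0.48 with 1 animal left out. Plxna1, Plxna2 and Plxna3, the partners of neuropilins in class 3 semaphorin signalling, differed by -0.07, 0.06 and 0.04.

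Nrp1, neuropilin 1, the co-receptor of class 3 semaphorins and of VEGF, was measured by a pair of probe sets whose differences were unlike, and neither passed. Probe set 92773_at read 7.28, 7.60, 7.67, 8.27 and 7.65 in IML, against 7.43, 6.80, 7.10, 7.21 and 7.99 in LMN and 6.92, 7.81, 6.88, 6.92 and 7.44 in MMN. Its difference from somatic samples was 0.44 ± 0.20 (adjusted p = 0.247, 4 of 5 animals), with the IML sample of animal 4 highest. Probe set 95016_at averaged 7.46 ± 0.39 in IML, 7.48 ± 0.59 in LMN and 7.41 ± 0.54 in MMN and differed by 0.02 ± 0.17. Its order of animals was another one, with animal 1 highest and animal 3 lowest over the 3 pools (7.88 and 6.78).

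Of the semaphorin ligands, 21 probe sets of 16 genes, none passed the test between IML and somatic samples, 14 were positive and 7 negative, and 4 had an unadjusted p under 0.05 in limma. Sema7a, a GPI-anchored semaphorin that signals through integrins and plexin C1, had the lowest difference. Probe set 93411_at read 8.14, 8.00, 7.44, 8.73 and 8.46 in IML, against 8.19, 8.59, 8.83, 9.26 and 9.32 in LMN and 8.33, 8.31, 8.55, 8.78 and 8.12 in MMN. The IML sample of animal 3 was lowest of all 15, and IML was below LMN in each animal. The difference was -0.68 ± 0.20 against LMN (adjusted p = 0.0523) and -0.47 ± 0.17 against both somatic pools (adjusted p = 0.130), in 5 of 5 animals each, with an SD of 0.41 between the 2 arrays of a sample. In 8 of 22 alternatives, an adjusted p under 0.1 among them, the difference from LMN passed the threshold. The second probe set, 97794_at, differed from LMN by -0.11 ± 0.06.

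Sema3b, a secreted class 3 semaphorin, had the highest difference from somatic samples among the members, which did not pass. Probe set 99460_at read 7.18, 8.31, 7.15, 7.80 and 8.53 in IML, against 7.16, 7.95, 6.76, 6.89 and 7.03 in LMN and 7.82, 8.29, 6.77, 6.74 and 7.12 in MMN. It was high in all 3 pools of animal 2 and in IML of animal 5, and low in all 3 pools of animal 3. The difference was 0.54 ± 0.20 (adjusted p = 0.143, 4 of 5 animals), from -0.31 in animal 1 to 1.45 in animal 5. The second probe set, 161801_r_at, whose suffix marks probes that may bind other transcripts, had 0.28 ± 0.10 (adjusted p = 0.134, 5 of 5 animals). With the meningeal marker mean as a covariate the first turned to -0.29, and the part of these cells in the result was not tested otherwise.

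Sema5a, a transmembrane semaphorin with thrombospondin repeats, read 4.77, 4.74, 4.66, 4.50 and 4.75 in IML, against 4.56, 4.45, 4.57, 4.43 and 4.33 in LMN and 4.56, 4.60, 4.50, 4.50 and 4.68 in MMN. It averaged 4.57 over the 15 samples, a low intensity that cannot be set against background without detection calls. Of the 5 IML samples 4 lay above every LMN sample, and the difference from LMN was 0.22 ± 0.06 (adjusted p = 0.0568, 5 of 5 animals). Against both somatic pools it was 0.17 ± 0.05 (adjusted p = 0.102).

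Of the other class 3 semaphorins, Sema3a, a repellent of many axons, differed from somatic samples by -0.10 ± 0.05, Sema3c by 0.11 ± 0.05, Sema3e by 0.11 ± 0.07 and Sema3f by -0.06 ± 0.04. The 7 probe sets of the membrane-bound class 4 (Sema4a, Sema4b, Sema4d and Sema4f) were all positive, with a median of 0.06. The highest of them, Sema4b 95387_f_at at 0.23 ± 0.15, carries a suffix for probes shared within a gene family, and its IML sample of animal 3 read 8.81 where the other IML samples read 7.21 to 7.95. The other 2 Sema4b probe sets differed by 0.01 and 0.02. Sema6a, Sema6b, Sema6c and Sema6d, which bind class A plexins, differed by -0.07, -0.05, 0.06 and 0.04. Sema6c read 8.12 ± 0.21 in IML, 8.01 ± 0.21 in LMN and 8.11 ± 0.19 in MMN, and was lower in LMN than in MMN in 5 of 5 animals (-0.10 ± 0.05, adjusted p = 0.497). Sema5b differed by -0.03.

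Robo1, a Slit receptor, varied more between animals than between pools. It read 6.94, 6.51, 7.42, 6.67 and 7.00 in IML, against 6.28, 6.75, 7.63, 6.85 and 6.76 in LMN and 6.07, 6.41, 7.56, 6.54 and 7.06 in MMN. Animal 3 was highest in every pool, and the difference between IML and somatic samples was 0.12 ± 0.12 (adjusted p = 0.658, 2 of 5 animals higher), which became -0.04 without animal 1. Robo3, a Robo of commissural axons, differed by 0.05 ± 0.06.

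Netrin 1, the secreted ligand of Dcc and Unc5 receptors, had differences of 0.04 ± 0.05 and 0.01 ± 0.05 on its 2 probe sets. The first, 97728_at, averaged 5.35 ± 0.12 in IML, 5.32 ± 0.14 in LMN and 5.31 ± 0.17 in MMN, and the second, 97977_at, averaged 7.32 ± 0.13, 7.26 ± 0.11 and 7.36 ± 0.17 in the same pools. Dcc, the attractive netrin receptor, read 7.32, 7.20, 7.08, 7.12 and 7.22 in IML, against 7.47, 7.28, 7.28, 7.34 and 7.27 in LMN and 7.45, 7.23, 7.12, 7.30 and 7.24 in MMN. IML was the lowest pool of each animal by at most 0.22, and the difference of -0.11 ± 0.04 from somatic samples did not pass (adjusted p = 0.137). Unc5c, a repulsive netrin receptor, differed by 0.02 ± 0.07. Unc50, the name match, differed by -0.10 ± 0.09.

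The members also varied by animal. Averaged over the pools, 39 of 58 members were highest in animal 1, where 48.2% of all probe sets were. The range over the 15 samples had a median of 0.53 for the members and 0.59 for all probe sets. It was over 1 for 11 members of 9 genes, where 21.1% of all probe sets had such a range, and under 0.6 for 35, where 50.9% did. The 9 genes were Efnb2, Epha5, Epha7, Robo1, Sema3b, Sema4b, Sema7a, Nrp1 and Plxnd1. Of 12 genes with several probe sets, 9 had differences of 1 sign between IML and somatic samples and 3 of both signs (Efnb3, Epha7 and Plxnb2).

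**Figure D3:**
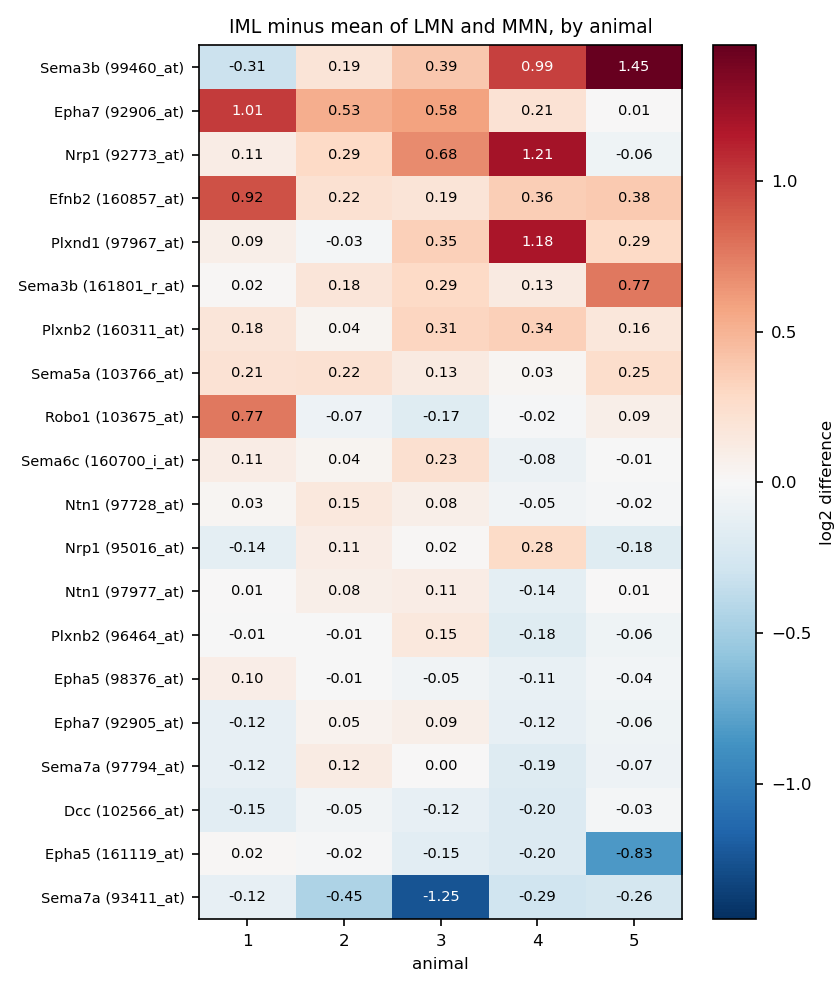
Difference between IML and the mean of LMN and MMN in each of the 5 animals (columns, log2, red for higher in IML and blue for lower) for the 20 probe sets whose samples are described, in order of their fitted difference. Efnb2 and Plxnb2 160311_at were among the probe sets higher in 5 of 5 animals, while Plxnb2 96464_at was higher in 1 of 5. The highest single values were 1.45 for Sema3b in animal 5 and 1.21 for Nrp1 in animal 4.

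The cytoplasmic proteins through which these receptors act were described from 3 lists, with each gene taken by its brightest probe set, as in the last list below. The shares over all probe sets given beside the lists include dim probe sets, so they are an unlike and lower base. Fitted without dim probe sets, 540 of 6211 were called between IML and somatic samples and 842 of 6211 between IML and LMN. No list was tested against these shares. Of 27 listed effectors of Eph and ephrin signalling 20 were measured, of which 1 was called higher in IML than in somatic samples, none lower and 19 were not called, with a median of -0.01. That is 5.00% of the list, where 5.52% of all probe sets were called. The one was Ngef, ephexin 1, an exchange factor that EphA receptors use to act on RhoA. It read 9.82, 9.33, 9.94, 9.43 and 9.25 in IML, against 9.50, 8.85, 8.98, 9.14 and 8.60 in LMN and 9.21, 9.23, 9.17, 9.32 and 8.55 in MMN. The pool ranges overlapped, and IML was the highest pool of each animal, by 0.50 ± 0.10 over both somatic pools (adjusted p = 0.0187) and 0.54 ± 0.12 over LMN (adjusted p = 0.0171). With the meningeal marker mean as a covariate Ngef was higher by 0.26 ± 0.23 over both somatic pools, and with the glial marker mean by 0.25 ± 0.22. Both calls were lost without animal 3 or animal 5 (adjusted p up to 0.0967). Between IML and LMN, Itsn1, an exchange factor for Cdc42 downstream of EphB2, was higher by 0.29 ± 0.06 (adjusted p = 0.0166), and Kalrn, kalirin, an exchange factor in EphB-driven spine growth, was lower by 0.58 (-0.58 ± 0.14, adjusted p = 0.0253). The second probe set of Kalrn, which averaged 5.21 over the 15 samples, differed by 0.03 ± 0.06. Itsn1 averaged 9.77 ± 0.12 in IML, 9.48 ± 0.10 in LMN and 9.71 ± 0.05 in MMN, and Kalrn averaged 6.24 ± 0.17 in IML, 6.83 ± 0.48 in LMN and 6.29 ± 0.38 in MMN. With the meningeal covariate Itsn1 differed from LMN by 0.26 and Kalrn by 0.02. With the glial covariate Itsn1 differed from LMN by 0.05 ± 0.12. None of these passed, in models where limma called none of the 12422 probe sets. The call of Itsn1 was lost without animal 1 or 5 (adjusted p up to 0.0705), and that of Kalrn without animal 1, 3, 4 or 5 (up to 0.0869). These 3 calls against LMN were 15.0% of the list, where 8.98% of all probe sets were called, and the other 17 gave none.

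Of 30 listed effectors of Robo, netrin and Dcc signalling 22 were measured, of which 1 was called higher in IML than in somatic samples and 2 lower, with a median of -0.09. Together they were 13.6% of the list, beside 5.52% of all probe sets. Srgap2, a GTPase-activating protein that binds Robo1, read 6.34, 6.62, 6.35, 6.57 and 6.49 in IML, against 6.90, 6.77, 6.92, 6.79 and 7.02 in LMN and 6.96, 6.75, 6.76, 6.77 and 6.65 in MMN. All IML samples lay below all samples of both somatic pools, and 0.29% of all probe sets had such a lack of overlap in either direction. The difference was -0.35 ± 0.07 (adjusted p = 0.0186), and -0.31 ± 0.17 with the meningeal marker mean as a covariate. Siah2, a ubiquitin ligase of Dcc, was lower by 0.22 (-0.22 ± 0.05, adjusted p = 0.0428), and Cdc42, the small GTPase, was higher by 0.22 ± 0.06 (adjusted p = 0.0462). Between IML and LMN, Srgap2, Sos1 and Pak3 were called lower and Cdc42 higher, 18.2% of the list beside 8.98% of all probe sets. Sos1, a Ras and Rac exchange factor recruited by Robo, differed by -0.24 ± 0.05 (adjusted p = 0.0139), and Pak3, a kinase downstream of Rac and Cdc42, by -0.50 ± 0.13 (adjusted p = 0.0408). With the meningeal covariate the differences from LMN were -0.35 for Srgap2, -0.13 for Sos1, -0.07 for Pak3 and 0.16 for Cdc42, and those from the somatic samples were -0.19 for Siah2 and 0.12 for Cdc42. None of them passed there, where limma called none of the 12422 probe sets. Each of these calls was also lost with some of the animals left out 1 at a time, with adjusted p-values of up to 0.183. For Srgap2 these were animals 1, 3 and 5 against somatic samples and 3 and 5 against LMN, for Sos1 animals 3, 4 and 5, for Siah2 and Pak3 animals 1, 3, 4 and 5, and for Cdc42 animals 2 to 5 in both comparisons. Without the LMN sample of animal 2 the calls of Pak3 and Cdc42 were lost as well. Of 29 listed effectors of semaphorin and plexin signalling 17 were measured and limma called none in either comparison. At an unadjusted p under 0.05 limma had 5 of the 17 between IML and somatic samples and 7 between IML and LMN. Of all probe sets, 20.7% and 23.5% had such a p in these 2 comparisons. The smallest p-values between IML and somatic samples were those of Rras (0.34 ± 0.11), a GTPase inactivated by plexins, Dpysl4 (0.13 ± 0.05), Cdk5 (-0.41 ± 0.18) and Cfl1 (-0.12 ± 0.05).

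The last list held other guidance, co-receptor and adhesion genes, of which 37 of 51 were measured. In IML against somatic samples 2 were called higher and 1 lower, with a median of -0.01. They made up 8.11% of the list, beside 5.52% of all probe sets. The list was chosen with earlier results of these data known and holds Ncam1 and Reln, the 2 called higher. Its share is thus no test of the list. Ncam1, the neural cell adhesion molecule, read 10.43, 10.08, 10.05, 10.31 and 9.86 in IML, against 8.51, 9.12, 8.85, 9.00 and 8.63 in LMN and 9.19, 9.63, 9.16, 9.16 and 9.25 in MMN, with no overlap between IML and either other pool. Such a lack of overlap was found for 0.29% of all probe sets. The difference of Ncam1 from somatic samples, 1.10 ± 0.11 (adjusted p = 0.000895), was 0.94 ± 0.25 with the meningeal covariate. Its probe set 161750_f_at had 0.70 ± 0.08 (adjusted p = 0.00105), and 100152_at, which averaged 5.47 over the 15 samples, had -0.03 ± 0.04. Reln, the secreted guide of neuronal migration, was higher by 1.31 ± 0.21 (adjusted p = 0.00756), while its second probe set, 161231_r_at, differed by 0.14 ± 0.07 (adjusted p = 0.267) and was not called. Ret, the GDNF receptor kinase, was lower by 0.34 (-0.34 ± 0.07, adjusted p = 0.0206, 4 of 5 animals). Against LMN, Ncam1, Reln, Sdc2 and Wnt4 were called higher, and Ret, Ptprd and Gpc1 lower, 18.9% of the list beside 8.98% of all probe sets. Ptprd, a receptor phosphatase, differed from LMN by -0.53 ± 0.12 (adjusted p = 0.0199), and its other probe sets differed by -0.05 ± 0.06 and -0.40 ± 0.16 and were not called. The syndecan Sdc2 had 0.30 ± 0.08, and its second probe set, which averaged 4.15 over the 15 samples, had -0.01 ± 0.08. Wnt4 had 0.38 ± 0.09 and the glypican Gpc1 had -0.57 ± 0.16. With the meningeal covariate, where limma called none of the 12422 probe sets, none of these calls held. The differences from LMN were then 1.11 for Ncam1, 0.82 for Reln, 0.28 for Sdc2, 0.66 for Wnt4, -0.44 for Ret, 0.08 for Ptprd and -0.64 for Gpc1. Over all alternatives the difference of Ret ran from -0.53 to -0.1 against LMN and from -0.43 to -0.08 against somatic samples. The calls of Ncam1 and Reln against somatic samples and against LMN held with any 1 animal left out, that of Reln at an adjusted p of up to 0.0486 against LMN, but Reln did not pass without the animal block (adjusted p = 0.191 against somatic samples). The other calls of these 2 comparisons were lost with some of the animals left out 1 at a time, with adjusted p-values of up to 0.165. These were animals 1, 2, 3 and 5 for Ret against somatic samples and 1, 3 and 5 against LMN, animals 3, 4 and 5 for Ptprd, animals 1, 2, 3 and 5 for Sdc2 and Wnt4, and animals 1, 3, 4 and 5 for Gpc1. The calls of Sdc2 and Wnt4 were lost as well without the LMN sample of animal 2. Against MMN, limma called Ncam1 (0.87 ± 0.12, adjusted p = 0.0193) and Reln (1.39 ± 0.24, adjusted p = 0.0375) higher in IML. They were 5.41% of the list, beside 0.346% of all probe sets. That call of Ncam1 was lost without animal 3, 4 or 5, and that of Reln without any 1 of the 5 animals.

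**Figure D4:**
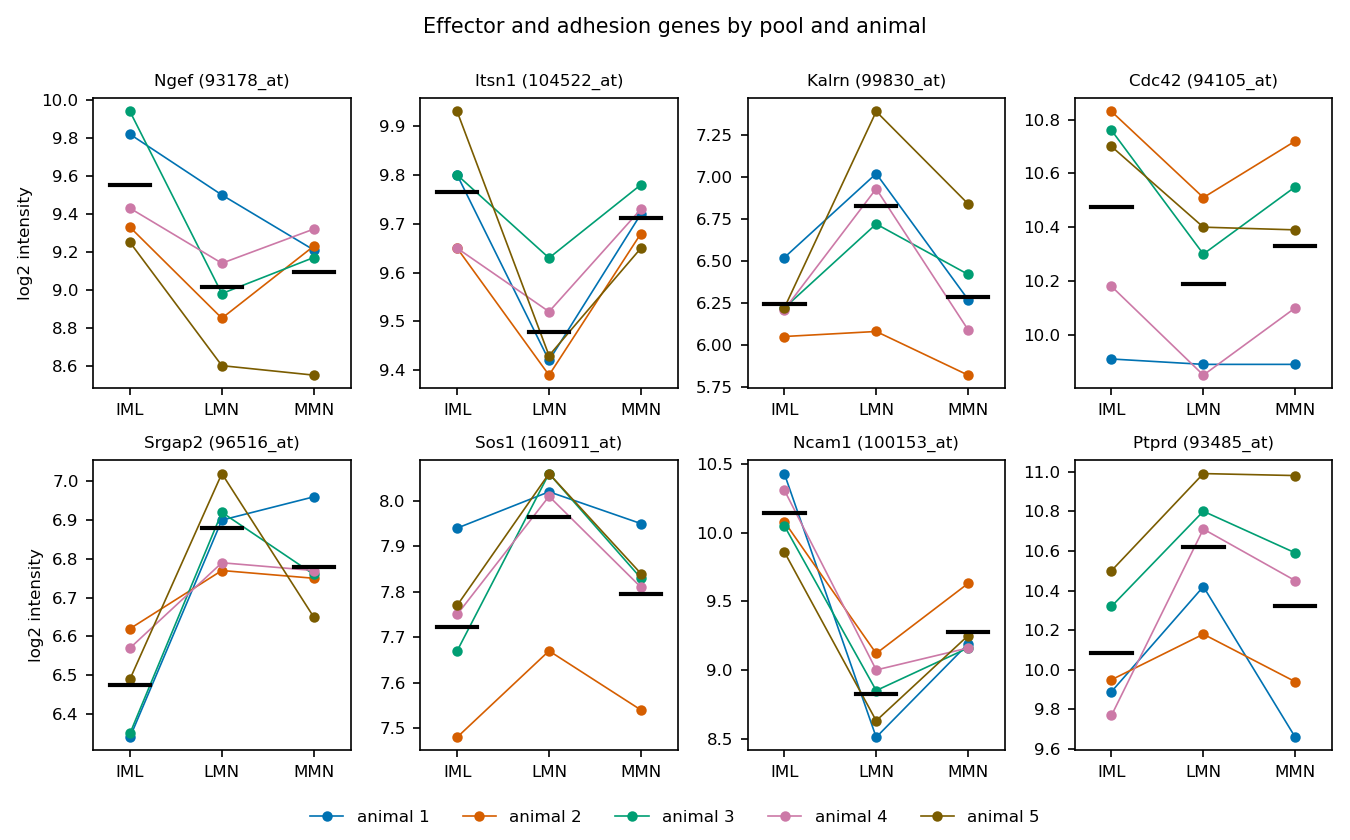
Log2 intensity (vertical axes, each on its own scale) of 8 effector and adhesion genes in IML, LMN and MMN, with a line for each of the 5 animals and a black bar at the mean of each pool. The 5 IML samples of Ncam1 lie above all other samples and those of Srgap2 lie below all others, a lack of overlap that 0.29% of all probe sets had. Ngef is highest in IML in each animal.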

How the data were processed

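Per the labels, the authors normalized the array signals with a tool named R-pack and took inverse logs, which makes the deposited numbers linear intensity. The method and version of that step are not stated in the labels, and no detection calls were used. Amplification in 2 rounds favours 3' ends. The array medians ran from 131.6 to 145.7, and the number of arrays limits the precision. Of 12488 probe sets, 66 controls were left out. In the platform's annotation 10833 probe sets had 1 symbol, 396 several and 1193 none. All 58 members matched GRCm38.p6 RefSeq through their gene identifier.

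Log2 was taken without an offset, and the 2 arrays of a sample were averaged. Linear models (limma 3.58.1, R 4.3.3) had pool and animal as fixed terms over 15 samples, with eBayes, two-sided tests and Benjamini-Hochberg adjustment over 12422 probe sets at a threshold of 0.05. The labels state that the 3 pools came from each animal. In a check, same-animal samples deviated together in all 15 pairs (correlations 0.288 to 0.747). On simulated data (5 runs over 12422 probe sets, IML against somatic samples) 88.8% of log2 changes of 0.5 and 99.2% of changes of 1 were recovered, and 4.08% of calls were false. The simulated noise was normal and drawn from the spread fitted by the same model. It held no outlying samples and no differences in other cells' transcripts, so these shares may not hold for the real samples.

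The members, lists, models and alternatives were chosen with earlier results of these data known. The probe sets described were those of Epha7, of members called in any comparison, of the 8 members with the smallest p between IML and somatic samples and the 4 in each other comparison, of the ligand and receptor of smallest p in each family, and the other probe sets of these genes. Sample values are given for most of them, and pool means or differences alone for the rest (Sema6c, Ntn1 and second probe sets). Genes named from the effector lists are those called, or else the 4 of smallest p. The remaining members are named without sample values.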

Additional observations from a re-analysis of the deposited data

Results flagged for a closer look

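In 60 sets of 5 samples (20 described probe sets in 3 pools), the highest or lowest sample was tested for a gap of over 0.71 of the whole range. Chance alone gives such a gap in about 1 in 20 sets, and 5 were found. Plxnd1 in IML of animal 4 read 8.65 where the other IML samples read 7.61 to 7.79, and Plxnd1 in LMN of animal 1 read 7.65 where the others read 7.44 to 7.49. Nrp1 95016_at in IML of animal 3 read 6.80 where the others read 7.52 to 7.79. Epha5 98376_at in IML of animal 4 read 5.25 where the others read 5.40 to 5.41. Ntn1 97977_at in LMN of animal 1 read 7.45 where the others read 7.19 to 7.24.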

How the results depend on the processing

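The count of members called between IML and somatic samples (1, Epha7) was 0 with no replicate block, that is without the pairing by animal, with technical set 1 alone, with arrays centred on the median, with a floor of 32, with either marker covariate, without the LMN sample of animal 2 and at an adjusted p under 0.01. It was 2 with technical set 2 alone (Efnb2 and Sema7a), 6 with all 30 arrays in the model, 3 at an adjusted p under 0.1, and 0 to 1 with 1 animal left out. Without animal 2 the one called was Plxnb2. Without dim probe sets it was Efnb2, in a fit that did not hold Epha7 92906_at. That probe set averaged 6.49, below the median of 7.1 at which dim probe sets were cut. The count between IML and LMN (3) was 0 with no replicate block, with either marker covariate and at an adjusted p under 0.01. It was 5 with the animal as a random block and with a trended, robust variance, 6 after quantile normalization, 8 with all 30 arrays and at an adjusted p under 0.1, 1 without the LMN sample of animal 2, and 1 to 2 with 1 animal left out. Between IML and MMN and between LMN and MMN it was 1 each with all 30 arrays (Epha7 and Efnb2). That model counts the arrays of a sample as separate values within a random block. The median member difference between IML and somatic samples became -0.0619 with the glial covariate. At an unadjusted p under 0.05, limma with the meningeal covariate had 1 member and 369 of all probe sets between IML and somatic samples, and with no replicate block 6 and 1303. The cause of these shifts was not tested. The standard error of the median probe set rose by a factor of 2.37 with the meningeal covariate.

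Differences of named probe sets changed sign in these cases and none passed there. The comparison is IML against somatic samples unless another is named. With the meningeal covariate it gave 0.00368 for Epha5 161119_at, 0.11 for Epha5 98376_at, -0.29 for Sema3b 99460_at, 0.02 for Sema7a 97794_at, -0.12 for Nrp1 92773_at, -0.08 for Nrp1 95016_at, -0.04 for Plxnb2 160311_at and -0.22 for Plxnd1. Against LMN it gave -0.06 for Plxnb2 160311_at, and against MMN -0.02 for that probe set and -0.05 for Plxnd1. With the glial covariate Robo1 was -0.12, Ntn1 -0.01 and -0.17 on its 2 probe sets, and Sema6c -0.06. Nrp1 95016_at was -0.12 with technical set 2, -0.01 after quantile normalization, -0.00322 with centred arrays and -0.07 without the LMN sample of animal 2. In those same models Ntn1 97977_at was -0.01, -0.00343, -0.01 and -0.01. Plxnb2 96464_at was 0.0031 with technical set 1. With 1 animal left out, Robo1 ran from -0.04 to 0.19, Ntn1 97977_at from -0.01 to 0.05, Nrp1 95016_at from -0.05 to 0.07, Plxnb2 96464_at from -0.06 to 0.02 and Epha5 98376_at from -0.05 to 0.00103. With the floor of 32, Epha7 92905_at and Sema5a had no value, since all their samples lay below it. For the called genes of the effector and adhesion lists, whose alternatives were chosen after seeing the data, the signs that changed were those of Kalrn (0.02) and Ptprd (0.08) against LMN with the meningeal covariate and of Sdc2 (-0.06) against LMN with the glial covariate.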
